A study of Mus musculus with 30 samples.

Results

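Untreated microglia grown from neonatal mice by Protocol 1 were compared with untreated microglia that Protocol 3 took from adult mice without culture. The comparison used 12 of the 30 libraries of the series, chosen by their labels. They were the Control libraries of Protocols 1A, 1B and 1C, 3 of each and 9 in all, and the 3 Control libraries of Protocol 3. The series as a whole asked how the way of obtaining microglia affects their transcripts, and its other libraries hold cultured adult cells (Protocol 2) and cells given HMGB1, a nuclear protein that acts as a danger signal outside the cell. Protocol 1 cells came from the brains of pups of postnatal days 0 to 3, with 5 mice per suspension. They grew in medium with serum for 10 days with the myeloid growth factor GM-CSF at 0.5 ng/ml in Protocol 1A, for 10 days with 0 ng/ml GM-CSF in Protocol 1B and for 21 days with 0.5 ng/ml GM-CSF in Protocol 1C. The cells were then shaken off the flask and plated in serum-free medium. Protocol 3 cells came from mice aged 6 to 8 weeks and spent 0 days in culture. They were caught with magnetic beads against CD11b, the protein of Itgam, and placed directly in the same serum-free medium. How long the Control cells of Protocol 3 stayed in it before lysis is not given in the sources used here. All mice were C57BL/6. Age, days in culture, serum and the way of isolation changed together between Protocol 1 and Protocol 3, as did GM-CSF for Protocols 1A and 1C. Protocol 1B had no added growth factor, like Protocol 3. Sex-linked transcripts differed too, as given below. The parts of these factors and of sex in any difference cannot be told apart.

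Counts per gene were tested with edgeR, and a gene is called higher or lower where p, adjusted by the Benjamini-Hochberg method over all genes tested, was under 0.05. Log2 fold changes are the mean of Protocols 1A, 1B and 1C minus Protocol 3 and are given ± their standard error. Levels are CPM, the counts of a gene per 1000000 counts of its library after TMM scaling. The 9 values of Protocol 1 are given as lowest, median and highest, and the 3 values of Protocol 3 in the order of replicates 1, 2 and 3. Replicates came from separate litters in Protocol 1 and from separate adult mice in Protocol 3.

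Total counts were 15824000 to 21497700 in Protocol 1, against 21782400 to 24892200 in Protocol 3, and 19429 to 21383 genes were detected in Protocol 1, against 22673 to 23832 in Protocol 3. Mitochondrial transcripts made up 1.32% to 1.87% of the counts in Protocol 1, against 0.613% to 0.652% in Protocol 3 (difference 0.908 percentage points, two-sided exact permutation test, p = 0.00909, the smallest that 9 against 3 libraries allow, and 0.0109 after Benjamini-Hochberg adjustment over 6 library measures). The 10 most abundant genes took 11.4% to 13.7% of the counts in Protocol 1, against 7.77% to 8.14% in Protocol 3. Every library carried the leukocyte and myeloid markers Ptprc, Itgam and Csf1r. The microglial markers Tmem119 and Siglech were near 0 in Protocol 1, as given below. The authors report a lower RNA yield for adult cells taken without culture than for the other protocols. They also report lower RNA integrity scores for these cells than for cultured adult cells. Whether RNA quality had a part in the differences between Protocol 1 and Protocol 3 was not tested.

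Microglia are the resident macrophages of the brain. In the adult brain TGF-beta and CSF1R signalling keep them in a state known as homeostatic, marked by surface receptors such as P2ry12 and by the transcription factor Sall1. Taking microglia out of the tissue is known to switch on immediate early, heat shock and NF-kB genes within hours, and keeping them in dishes is known to lower homeostatic genes. Neonatal microglia divide, and microglia of the healthy adult brain rarely do.

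Most genes differed. Of 17033 genes tested, 6347 were higher in Protocol 1 (37.3%) and 7299 were lower (42.9%). Counts of list members below are to be read beside these shares. The size of the difference was at least 1 on the log2 scale for 4296 of the higher and 5344 of the lower genes. The median log2 fold change of all genes tested was -0.12. Library totals alone moved the median by 0.45 and called 7925 genes higher and 5668 lower, so that 58.3% of the called genes were higher, against 46.5% with TMM scaling. DESeq2 size factors moved the median by -0.083, and other lists of libraries or genes by at most 0.15 (the 12 libraries alone) and -0.16 (no filter on low counts). The balance of rises and falls thus depends on the scaling, and small falls can turn. Of the genes named below that did not pass, Ptprc, Lgmn, Tal1, Sod2, Tnfaip2, Tlr1, Itgax, C1qb, Tfrc and Scap turned sign and were called higher with library totals alone. Abca1, Abcg1, Ccr1, Ccr2, Clstn1, Ctsz, Folr2, Kif22, Mertk, Pttg1, Tgfbr2, Tirap, Tnfsf9 and Uqcrc2 kept their sign and were called higher there too.

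Against the same 3 libraries of Protocol 3, the neonatal cultures were each tested alone. Protocol 1A had 35.8% of the genes higher and 41.1% lower, Protocol 1B 36.7% and 40.5%, and Protocol 1C 37.4% and 38.5%. Among themselves, Protocols 1A, 1B and 1C differed in 6577 genes (38.6%, F test of the same fit). In all 3, 5197 genes were higher than in Protocol 3 and 5719 were lower. These comparisons share the Protocol 3 libraries.

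**Figure D1:**
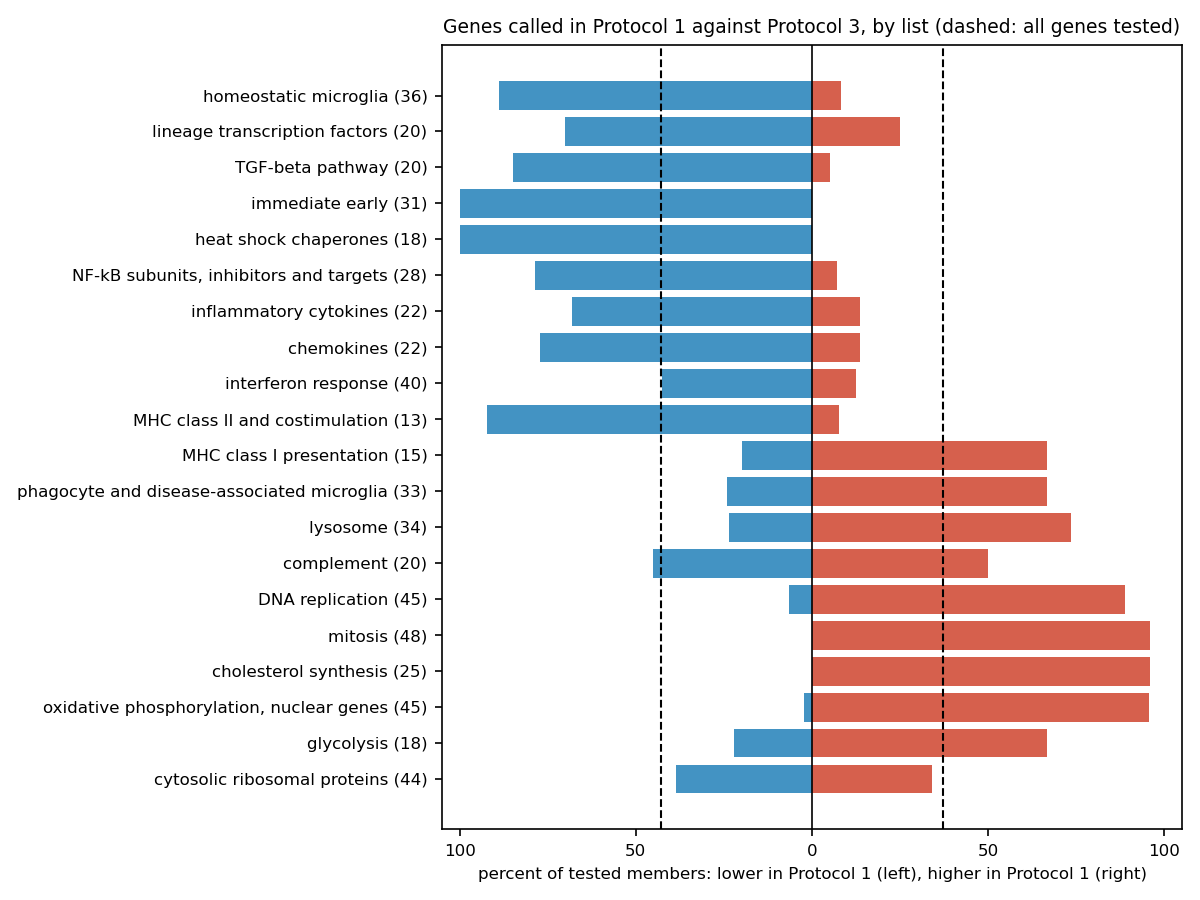
Members of 20 gene lists that were higher (to the right) or lower (to the left) in Control Protocol 1 than in Control Protocol 3, as percent of the members tested, with the number tested after each list name. The bars start at 0, and the dashed lines mark the shares of all 17033 genes that were higher (37.3%) or lower (42.9%). All 31 immediate early genes were lower, and 46 of 48 mitosis genes were higher.

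To rank the largest changes, protein-coding genes were kept if they passed, reached 10 CPM on average in whichever group was higher, had a count in both groups and did not overlap between them. Genes at 0 in all libraries of one group, such as Y-linked genes in Protocol 3 and Cldn5, Rgs5 and Upk1b in Protocol 1, were thus not ranked and are given with their groups. The first of the ranked rises, Atp6v0d2, a subunit of the vacuolar proton pump best known from osteoclasts, had 266, 343 and 709 CPM in Protocol 1, against 1.06, 0.333 and 0.196 CPM in Protocol 3, a log2 fold change of 9.58 ± 0.28, adjusted p = 2.57e-13. Gpnmb, a transmembrane glycoprotein of lipid-laden macrophages, had 6929, 8482 and 10433 CPM in Protocol 1, against 21.4, 23.9 and 19.8 CPM in Protocol 3. The ranking kept only genes without overlap, so the separation of the groups for both genes was a condition of entry. The log2 fold change of Gpnmb was 8.63 ± 0.15, adjusted p = 1.16e-20. Hmga2, a chromatin protein of embryonic and growing cells, had 14.4, 22.9 and 38.8 CPM in Protocol 1, against 0.118, 0.0555 and 0 CPM in Protocol 3. Its 3 counts in Protocol 3 give a ratio of 448-fold (95% interval 153 to 2172) in Protocol 1, where the interval covers counting error only. The fatty acid binding proteins Fabp4 and Fabp5 rose by 6.69 and 6.48 on the log2 scale. Colec12, a scavenger receptor, and Hpse, which encodes the heparan sulfate-cutting enzyme heparanase, rose by 6.73 and 6.73. Other genes among the 15 ranked rises were Anpep (7.97), the aminopeptidase CD13, Nrcam (7.54), an adhesion protein of the nervous system, the Wnt regulator Dkk2 (6.58), Siglec1 (6.38), the sialic acid receptor CD169, and Pde1c (6.29), a phosphodiesterase. Mcoln3, a cation channel of endosomes, had 1.49, 13.7 and 24.02 CPM in Protocol 1, against 0.0591, 0 and 0 CPM in Protocol 3, with 1 count in Protocol 3. The last of the 15 to be named is 2610524H06Rik (6.35), whose role is not given here. The scavenger receptor Marco rose by 6.52 but varied with the culture. It had 275 ± 30.7 CPM in 1A, 10.97 ± 2.97 CPM in 1B and 778 ± 153 CPM in 1C, against 1.43 ± 0.485 CPM in Protocol 3 (mean ± SD, n = 3 each).

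Siglech, a sialic acid receptor typical of microglia, was among the 15 ranked falls. It had 0, 0.0872 and 0.256 CPM in Protocol 1, against 539, 515 and 485 CPM in Protocol 3. That is 19 counts in all 9 libraries of Protocol 1 together, and 28266 counts in the 3 of Protocol 3, a log2 fold change of -12.47 ± 0.17, adjusted p = 1.76e-19. Edn1, the vasoconstrictor endothelin, had 0.0465, 0.231 and 1.09 CPM in Protocol 1, against 405, 383 and 346 CPM in Protocol 3 (-10.65 ± 0.18, adjusted p = 2.30e-16). Adra2a, an adrenergic receptor that couples to inhibitory G proteins, had 0, 0.240 and 1.21 CPM in Protocol 1, against 153, 195 and 715 CPM in Protocol 3 (-10.39 ± 0.57, adjusted p = 1.22e-08). Protocol 3 replicate 3 was far above the other libraries of its group for Adra2a. That the groups did not overlap was a condition of the ranking. Fam83g had 0.154, 0.326 and 1.14 CPM in Protocol 1, against 502, 533 and 479 CPM in Protocol 3 (-10.31 ± 0.10, adjusted p = 1.14e-23). For 3 more genes Protocol 1 held so few counts that the ratio is given with its counting interval. Ildr1, a membrane protein of tight junctions, was 6399-fold (95% interval 1770.2 to 52858) higher in Protocol 3 than in Protocol 1, the interferon-inducible Ifi202b 2367-fold (95% interval 423 to 93619.6) and Hbb-bt, a beta globin, 2760.3-fold (95% interval 494 to 109157). The remaining genes of the 15 ranked falls were heat shock genes and genes of blood cells, described with their groups.

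Homeostatic microglial genes were lower in Protocol 1 almost throughout. Of 36 listed genes, 32 were lower and 3 higher, with a median log2 fold change of -2.47 and a range from -12.47 (Siglech) to 0.86 (P2ry6). P2ry12, the receptor through which microglial processes sense ADP, had 6.55, 12.2 and 14.3 CPM in Protocol 1, against 206, 222 and 225 CPM in Protocol 3, and Tmem119, a transmembrane protein used to identify microglia, had 1.003, 1.91 and 2.33 CPM in Protocol 1, against 49.7, 61.3 and 96.4 CPM in Protocol 3. No Protocol 1 library reached the lowest Protocol 3 library for either gene. The log2 fold changes were -4.29 ± 0.15, adjusted p = 8.22e-12 for P2ry12 and -5.36 ± 0.16, adjusted p = 3.87e-15 for Tmem119. Sall1, the transcription factor that holds the microglial programme, had 1.90, 3.81 and 12.2 CPM in Protocol 1, against 56.1, 63.5 and 65.3 CPM in Protocol 3 (-3.72 ± 0.12, adjusted p = 2.93e-16). Cx3cr1, the fractalkine receptor, had 21.8, 32.6 and 44.3 CPM in Protocol 1, against 135, 160.4 and 239 CPM in Protocol 3 (-2.51 ± 0.18, adjusted p = 6.35e-08), and the groups did not overlap. Adgrg1, the adhesion receptor GPR56, had 0.0479, 1.55 and 3.002 CPM in Protocol 1, against 191, 192 and 198 CPM in Protocol 3 (-8.09 ± 0.12, adjusted p = 1.08e-20), with 0.0740 ± 0.0423 CPM in 1A, 2.06 ± 0.821 in 1B and 2.09 ± 0.554 in 1C, against 194 ± 3.74 CPM in Protocol 3 (mean ± SD, n = 3 each). Other falls were seen in Nav3 (-7.11), a neuron navigator protein, and Bin1 (-3.73), a membrane-bending protein. The urothelial protein gene Upk1b had 0 counts in all 9 Protocol 1 libraries and 17.7, 15.5 and 14.6 CPM in Protocol 3, at least 973-fold higher in Protocol 3 when 3 counts are allowed over the 9 libraries. The 3 genes that rose were Trem2 (0.79 ± 0.074, adjusted p = 4.25e-09), a lipid receptor of microglia, P2ry6 (0.86 ± 0.067, adjusted p = 2.63e-10), the UDP receptor linked to phagocytosis, and Abcc3 (0.60 ± 0.082, adjusted p = 1.00e-06), an export pump. Lgmn, the protease legumain, did not pass (-0.14 ± 0.082, adjusted p = 0.12).

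**Figure D2:**
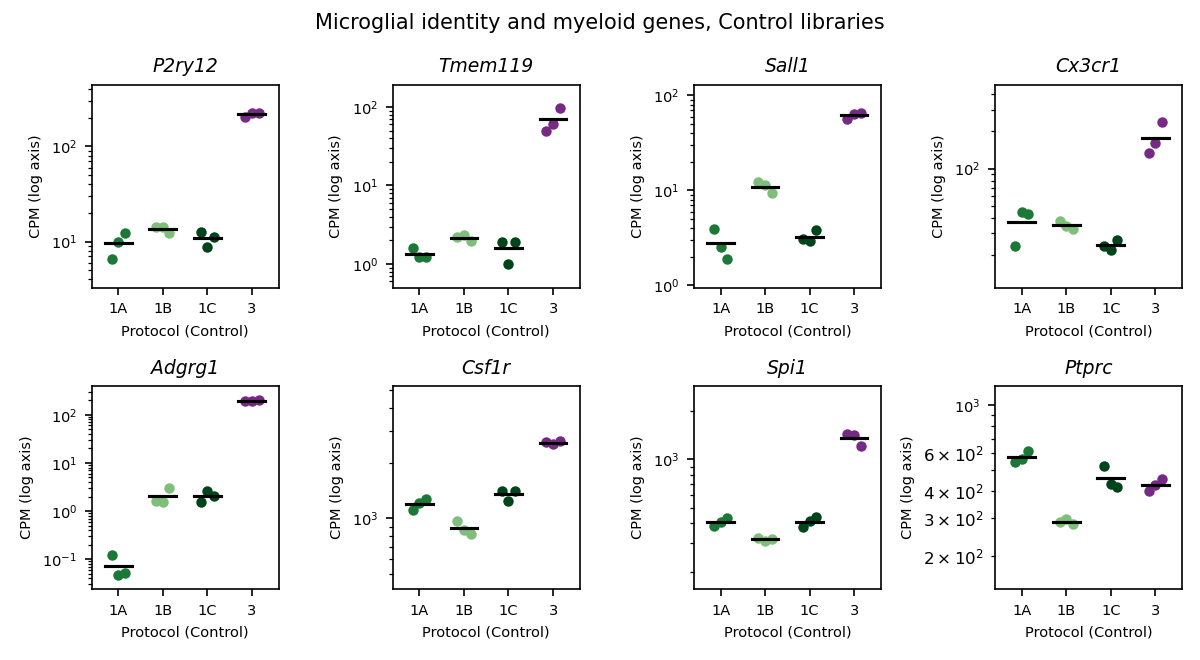
Levels of 8 genes of microglial identity and the myeloid lineage in each Control library, in CPM on a log axis, with 1 point per library and a bar at the mean of each group of 3. Points at 0 CPM are drawn at the lower edge. Tmem119 reached 2.33 CPM in Protocol 1 and at least 49.7 CPM in Protocol 3, while Ptprc overlapped between the groups.

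The general leukocyte and myeloid genes moved far less. Ptprc, which encodes CD45, had 282, 430.5 and 615 CPM in Protocol 1, against 401, 429.8 and 456 CPM in Protocol 3, and the groups overlapped (-0.016 ± 0.075, adjusted p = 0.854). Itgam, the gene of the CD11b used to select Protocol 3 cells, was at 78.7, 135 and 180.5 CPM in Protocol 1, against 103, 99.6 and 101 CPM in Protocol 3 and was higher in Protocol 1 by 0.27 ± 0.068, adjusted p = 0.00105. In Protocol 1B alone it was lower (-0.27 ± 0.082, adjusted p = 0.00547). Csf1r, the receptor on which microglia depend for survival, had 823, 1216 and 1411 CPM in Protocol 1, against 2602, 2541 and 2640.5 CPM in Protocol 3 and fell by 1.20 ± 0.068 on the log2 scale, adjusted p = 1.36e-12.

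Transcription factors of the lineage were mostly lower, 14 of 20, with 5 higher and a median of -1.19 and a range from -4.46 (Sall3) to 1.91 (Maf). Spi1, the master factor PU.1, had 311, 386 and 434 CPM in Protocol 1, against 1429, 1408 and 1204 CPM in Protocol 3 (-1.84 ± 0.062, adjusted p = 3.14e-16), with no overlap between the groups. Irf8 fell by 1.43, Mef2c by 0.96, Mef2a by 2.60 and Runx1 by 2.82. All are factors that act with PU.1 in macrophages. Maf, a basic leucine zipper factor, went the other way and rose by 1.91 ± 0.12, adjusted p = 9.08e-11, as did Lmo2 (1.19 ± 0.11, adjusted p = 3.47e-08), a haematopoietic adaptor. Tal1, a partner of Lmo2, did not pass (-0.066 ± 0.088, adjusted p = 0.499).

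The TGF-beta pathway, which maintains adult microglia, was mostly lower. Of 20 genes 17 were lower and 1 was higher, with a median of -1.94 and a range from -6.02 (Smad7) to 0.26 (Nrros). The ligand gene Tgfb1 had 393, 424 and 453 CPM in Protocol 1, against 552, 577 and 532 CPM in Protocol 3, a small fall (-0.39 ± 0.055, adjusted p = 1.74e-06) that was not seen with library totals (0.060). Tgfbr1, the signalling receptor, had 130.3, 148 and 215 CPM in Protocol 1, against 1997, 2067 and 1886 CPM in Protocol 3 (-3.68 ± 0.068, adjusted p = 2.95e-20), and every Protocol 1 library was far below every Protocol 3 library. Its partner receptor Tgfbr2 did not pass (0.082 ± 0.076, adjusted p = 0.329). Of the SMAD proteins that carry the signal, Smad3 fell by 3.92, Smad2 by 1.27 and Smad4 by 0.93 on the log2 scale. The feedback inhibitors Skil (-4.30) and Pmepa1 (-4.96) were lower as well. Itgav, an integrin subunit that frees TGF-beta, fell (-1.999 ± 0.081, adjusted p = 1.67e-14), and the member that rose was Nrros (0.26 ± 0.061, adjusted p = 6.77e-04), which holds latent TGF-beta on microglia. Tgfb3 did not pass (-0.46 ± 0.38, adjusted p = 0.277).

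Genes of colony-stimulating factors and their receptors moved both ways, 3 of 10 higher and 7 lower. Csf1, the ligand of Csf1r, had 12.8, 21.7 and 50.997 CPM in Protocol 1, against 1505, 1583 and 1885 CPM in Protocol 3 (-6.12 ± 0.11, adjusted p = 3.42e-18), and Il34, its other ligand, had 0, 0 and 0.158 CPM in Protocol 1, against 1.12, 0.111 and 0.835 CPM in Protocol 3. Csf2ra and Csf2rb, the chains of the GM-CSF receptor, were higher by 0.49 ± 0.079, adjusted p = 1.17e-05 and 1.11 ± 0.079, adjusted p = 6.12e-11. Csf2ra did not pass in Protocol 1B alone (-0.079 ± 0.094, adjusted p = 0.454). Protocol 1B, grown without GM-CSF, had 156 ± 5.30 CPM of Csf2rb, against 425 ± 24.8 in 1A, 371 ± 28.7 in 1C and 135 ± 19.7 in Protocol 3. Il3ra, the chain for IL3, rose by 2.88 ± 0.10, adjusted p = 2.62e-16 and Csf3r, the G-CSF receptor, fell by 1.20. Csf2rb2, which shares sequence with Csf2rb, had a log2 fold change of -0.20 that turned to 0.25 with library totals and lost its call when any 1 library other than Protocol 3 replicate 3 was left out. Csf3 and Kit were lower at low levels, up to 0.419 and 0.610 CPM in Protocol 1, against at least 5.75 and 2.26 CPM in Protocol 3. Csf2 and Flt3 were too low to be tested.

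Genes of border and foetal macrophages moved both ways, 11 of 20 higher and 6 lower (median 1.53, range -5.09 (Cd163) to 5.65 (Lyz2) among genes with more than 10 counts in each group). Lyz2, which encodes lysozyme M and shares near-identical sequence with Lyz1, had 7610.5, 18274 and 22195 CPM in Protocol 1, against 268, 355 and 254 CPM in Protocol 3 (5.65 ± 0.14, adjusted p = 3.75e-18). The lipid scavenger receptors Cd36 (4.08 ± 0.13, adjusted p = 3.79e-16) and Msr1 (3.42 ± 0.087, adjusted p = 3.94e-18) rose too, as did the mannose receptor Mrc1 (2.78 ± 0.080, adjusted p = 2.73e-17), Ms4a7 (3.53 ± 0.12, adjusted p = 6.54e-16) and the platelet factor Pf4 (1.84 ± 0.13, adjusted p = 1.29e-09). Other members fell. Lyve1, the hyaluronan receptor, had 0, 0.358 and 0.718 CPM in Protocol 1, against 8.10, 9.22 and 9.97 CPM in Protocol 3, and Cd163, the haemoglobin scavenger receptor, had 0.308, 0.684 and 0.896 CPM in Protocol 1, against 19.7, 18.6 and 23.6 CPM in Protocol 3. Their log2 fold changes were -5.05 ± 0.34, adjusted p = 2.35e-11 and -5.09 ± 0.22, adjusted p = 1.97e-14, beside -3.55 for Cbr2 and -1.01 for F13a1. Cd209f was 92.2-fold (95% interval 30.5 to 456) higher in Protocol 3, on 3 counts in Protocol 1. Folr2 and Ccr1 did not pass.

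Purine receptors changed with P2ry12 and against it. P2rx7, the ATP-gated channel of inflammasome activation, had 75.9, 92.6 and 154 CPM in Protocol 1, against 912, 925 and 1152 CPM in Protocol 3 (-3.32 ± 0.082, adjusted p = 7.24e-18), and Adora2a, an adenosine receptor, had 0, 1.37 and 2.40 CPM in Protocol 1, against 20.5, 23.4 and 14.3 CPM in Protocol 3 (-5.14 ± 0.23, adjusted p = 2.88e-14). P2rx4, another ATP-gated channel, was higher (2.14 ± 0.10, adjusted p = 3.54e-14), and so was the UDP-sugar receptor P2ry14 (4.10 ± 0.30, adjusted p = 6.70e-09). Of 14 genes of the group 9 were lower and 4 higher. Entpd1, the ectonucleotidase CD39 that breaks down ATP, fell by 2.01. Nt5e, the enzyme CD73 of the following step, had a log2 fold change of 1.65 ± 0.69, adjusted p = 0.0359, which did not pass without Protocol 3 replicate 1 or 3 or Protocol 1B replicate 1 (1.66, 1.03 and 1.48). Adora2b did not pass.

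Every immediate early gene tested, 31 of 31, was lower in Protocol 1, and each was lower in 1A, in 1B and in 1C. The median log2 fold change was -4.64, against -0.12 for all genes. These genes encode short-lived factors that cells switch on within minutes of a stimulus. Fos, a subunit of the AP-1 factor, had 17.05, 32.2 and 40.6 CPM in Protocol 1, against 393, 453 and 499.6 CPM in Protocol 3 (-3.99 ± 0.13, adjusted p = 1.22e-12). Fosb had 0, 0.579 and 1.02 CPM in Protocol 1, against 524, 557 and 519 CPM in Protocol 3 (-10.28 ± 0.20, adjusted p = 2.45e-14), and the 3 Protocol 3 libraries lay close together for both genes. Egr1 had 10.5, 31.6 and 99.8 CPM in Protocol 1, against 4021, 4370.3 and 5597 CPM in Protocol 3 (-7.18 ± 0.18, adjusted p = 4.66e-13) and Nr4a1, an orphan nuclear receptor, had 1.19, 2.19 and 3.48 CPM in Protocol 1, against 1327, 1299 and 1649 CPM in Protocol 3 (-9.22 ± 0.18, adjusted p = 3.73e-14). Dusp1, a phosphatase that ends MAP kinase signalling, had 15.9, 19.9 and 37.3 CPM in Protocol 1, against 5175, 4666 and 3961 CPM in Protocol 3 (-7.63 ± 0.083, adjusted p = 3.18e-23). For none of these genes did a Protocol 1 library come near the lowest Protocol 3 library. Jun (-3.97), Junb (-4.97), Egr2 (-3.83), Klf6 (-3.47) and Myc (-2.35) were lower as well. The list ranged from -10.28 (Fosb) to -2.14 (Jund).

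The 160 bases before the start of Fos are shown because short cAMP response elements, TGACG on either strand, are a feature of immediate early promoters. The capitals mark them. Their first bases lie at -129 and -66, counted from -1 for the last base before the RefSeq start, and positions in the sequences below are counted in the same way. In all, 5 promoters are shown, each ending where the deposited gene begins or before it. The motif was in the 250 bases before the start of 15 of the 25 listed genes with a RefSeq promoter and of 19.8% of all 27025 symbols. A match of letters is a description, not a binding site.
Fos (chr12:85473730-85473889, plus strand, GRCm38.p6): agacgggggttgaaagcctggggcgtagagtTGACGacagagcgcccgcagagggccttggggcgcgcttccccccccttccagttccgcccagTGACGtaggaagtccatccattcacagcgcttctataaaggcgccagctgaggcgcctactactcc

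Heat shock chaperones were lower in all 18 of 18 genes (median -2.64, range -11.78 (Hspa1a) to -0.23 (Chordc1)). Hspa1a and Hspa1b encode the inducible HSP70 protein and are near-identical copies, so their reads cannot be cleanly split. Hspa1a had 0.119, 1.47 and 2.19 CPM in Protocol 1, against 2494, 3145 and 5444 CPM in Protocol 3 (-11.78 ± 0.28, adjusted p = 2.24e-12) and Hspa1b had 0.741, 1.44 and 3.35 CPM in Protocol 1, against 2844, 3490.1 and 6043 CPM in Protocol 3 (-11.38 ± 0.29, adjusted p = 4.03e-12). Protocol 3 replicate 3 was the highest library of all for both. Hspb1, the small chaperone HSP27, had 0.0513, 0.737 and 2.02 CPM in Protocol 1, against 913, 908 and 1625 CPM in Protocol 3 (-11.03 ± 0.29, adjusted p = 5.13e-12). The cytosolic HSP90 genes fell by 4.56 (Hsp90aa1, the inducible form) and 2.48 (Hsp90ab1, the constitutive form), and their partners Hsph1 and Dnajb1 fell by 4.88 and 2.93. With library totals alone 1 of the 18, Chordc1, was called higher.

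**Figure D3:**
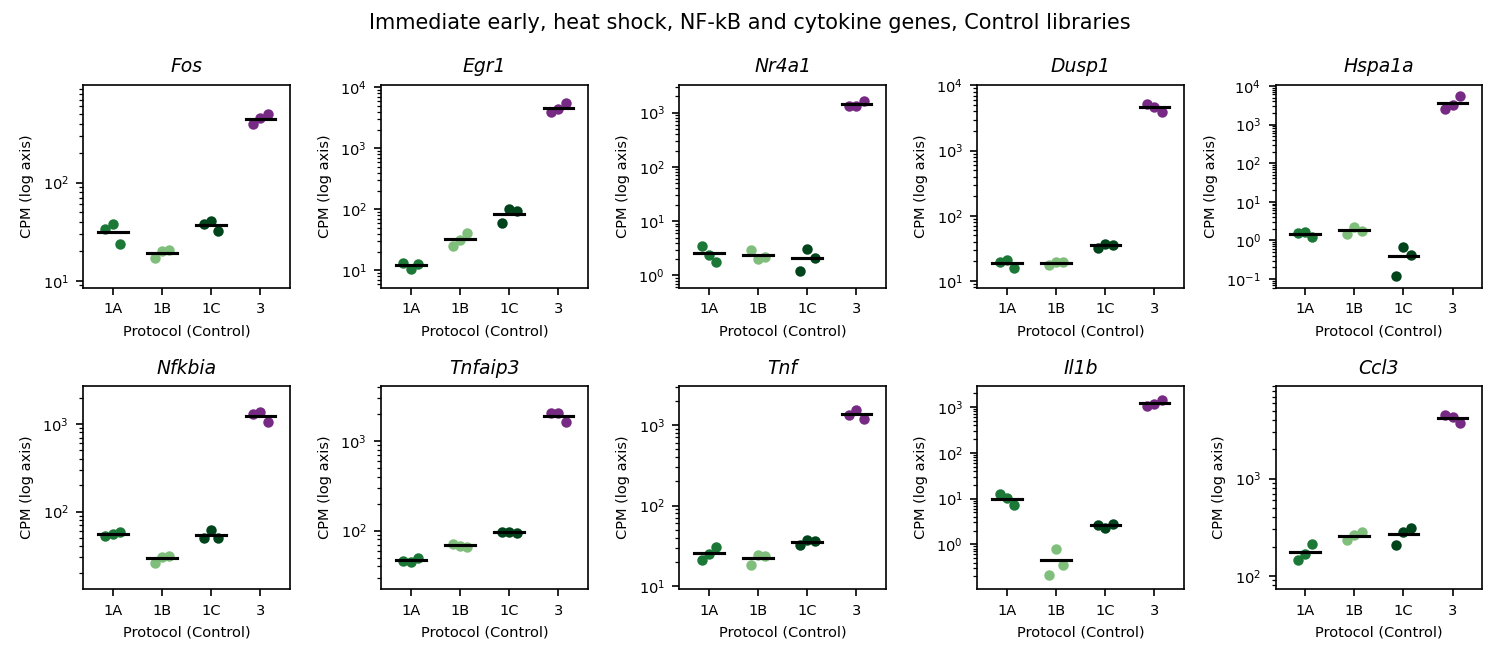
Levels of 10 activation genes, from immediate early and heat shock factors to NF-kB genes and cytokines, in each Control library, in CPM on a log axis. Points are libraries and bars are means of 3, and points at 0 CPM are drawn at the lower edge. All 3 Protocol 3 libraries lie above all 9 Protocol 1 libraries for each gene, as for Dusp1 with at most 37.3 CPM in Protocol 1 and at least 3961 CPM in Protocol 3.

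Genes of the NF-kB system were mostly lower, 22 of 28 genes, with 2 higher (median -3.13, range -6.35 (Traf1) to 0.67 (Ikbke)). Nfkbia, the inhibitor IκBα that NF-kB itself induces, had 26.1, 49.9 and 61.9 CPM in Protocol 1, against 1303, 1356 and 1045 CPM in Protocol 3 (-4.80 ± 0.081, adjusted p = 1.57e-20). Among the subunits Nfkb1 fell by 4.43, Relb by 4.01, Rel by 3.82, Nfkb2 by 2.99 and Rela by 2.41. Nfkbiz, a nuclear cofactor, had 6.87, 12.1 and 13.9 CPM in Protocol 1, against 657, 660.4 and 614 CPM in Protocol 3 (-5.89 ± 0.060, adjusted p = 1.14e-23), and Tnfaip3, the ubiquitin-editing brake A20, had 44.7, 67.9 and 95.9 CPM in Protocol 1, against 2038, 2030.0 and 1626 CPM in Protocol 3 (-4.82 ± 0.061, adjusted p = 1.99e-22). The groups did not overlap for any of these 3 genes. Ikbke, an IκB-related kinase, rose (0.67 ± 0.089, adjusted p = 7.97e-07). Irak3, a brake on Toll-like receptor signals, had 0.23 ± 0.094, adjusted p = 0.0333 and did not pass without Protocol 3 replicate 1 or 3 (0.16 and 0.15). Sod2 and Tnfaip2 did not pass.

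The 160 bases before the start of Nfkbia are given because the gene is a classical NF-kB target. The capitals mark the match to the NF-kB consensus, at -29. Of 24 genes of the list with a RefSeq promoter, 10 held such a match on either strand of the 250 bases before the start (41.7%), against 4.46% of all promoters.
Nfkbia (chr12:55492648-55492807, minus strand, GRCm38.p6): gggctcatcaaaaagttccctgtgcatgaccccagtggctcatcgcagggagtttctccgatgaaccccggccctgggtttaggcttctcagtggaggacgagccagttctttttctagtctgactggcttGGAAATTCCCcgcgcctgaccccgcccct

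Cytokine transcripts were far lower in Protocol 1. Of 22 tested, 15 were lower and 3 higher (median -5.10, range -9.05 (Il1b) to 1.14 (Tnfsf12)). Tnf, the gene of TNFα, had 18.4, 24.97 and 37.9 CPM in Protocol 1, against 1334, 1522 and 1198 CPM in Protocol 3 (-5.63 ± 0.12, adjusted p = 1.27e-15), and Il1b, the gene of IL1β, had 0.210, 2.69 and 12.4 CPM in Protocol 1, against 1074, 1146 and 1438 CPM in Protocol 3 (-9.05 ± 0.17, adjusted p = 9.91e-15). The highest Protocol 1 library thus held 37.9 CPM of Tnf and 12.4 CPM of Il1b, against at least 1198 and 1074 CPM in Protocol 3. Il1a, the other IL1 cytokine, had 2.16, 5.89 and 14.5 CPM in Protocol 1, against 2781, 3012 and 2921 CPM in Protocol 3 (-8.83 ± 0.10, adjusted p = 1.99e-22). Lif, a cytokine of the IL6 family, had 0, 0.164 and 0.523 CPM in Protocol 1, against 43.3, 51.1 and 46.8 CPM in Protocol 3 (-8.10 ± 0.20, adjusted p = 4.92e-18). Il6 had 5 counts over the 9 libraries of Protocol 1, against 7.51, 8.27 and 7.66 CPM in Protocol 3. Ifnb1, the gene of interferon beta, had 6 counts in Protocol 1, against 13.9, 11.9 and 9.48 CPM in Protocol 3. Il12b, a subunit of IL12, was lower too, with 8 counts in Protocol 1 and 181 in Protocol 3. The genes that rose were Tnfsf12 (1.14 ± 0.073, adjusted p = 1.09e-11), which encodes TWEAK, Il18 (0.88 ± 0.21, adjusted p = 7.40e-04), an inflammasome substrate, and Ebi3 (0.73 ± 0.12, adjusted p = 2.26e-05), a subunit of IL27. Il15 and Tnfsf9 did not pass.

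Chemokines followed, 17 of 22 lower and 3 higher (median -3.28, range -8.11 (Cxcl3) to 3.72 (Cxcl14)). Ccl3 had 146, 231 and 310.2 CPM in Protocol 1, against 4503, 4336 and 3759 CPM in Protocol 3 (-4.19 ± 0.11, adjusted p = 6.59e-16) and Ccl4 had 98.3, 167 and 242 CPM in Protocol 1, against 2366, 2684 and 2388 CPM in Protocol 3 (-3.87 ± 0.16, adjusted p = 1.10e-10). Both encode chemoattractants of myeloid and T cells, and their groups did not overlap. The neutrophil chemokine Cxcl3 fell by 8.11, Cxcl16 by 3.53, Ccl22 by 3.04, Ccl7 by 2.31 and Ccl5 by 2.01. Ccl2, the monocyte chemokine, had a log2 fold change of -0.83 ± 0.23, adjusted p = 0.00652, which did not pass without Protocol 3 replicate 3 (-0.66). Ccl6 rose instead, with 92.98, 239 and 944 CPM in Protocol 1, against 29.2, 28.98 and 29.96 CPM in Protocol 3 (3.24 ± 0.074, adjusted p = 7.80e-19), and so did Cxcl14 (3.72 ± 0.19, adjusted p = 7.28e-12) and Ccl9 (0.53 ± 0.074, adjusted p = 1.51e-06). Ccl8 and Cxcl13 did not pass.

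Regulators of RNA decay and dual-specificity phosphatases were mostly lower too. Zfp36, Dusp1, Dusp2 and Dusp5 were also members of the immediate early list. Of 13 regulators of RNA decay 11 were lower and 0 higher. Zfp36, which destabilizes Tnf mRNA, had 53.7, 60.8 and 97.04 CPM in Protocol 1, against 1990.3, 2087 and 1946 CPM in Protocol 3 (-4.93 ± 0.093, adjusted p = 1.23e-18). Zc3h12a, the RNase Regnase, fell by 4.66 and its relative Zc3h12c by 4.97. Of 12 dual-specificity phosphatases 8 were lower, among them Dusp2 (-8.53), Dusp5 (-5.97), Dusp8 (-5.97) and Dusp16 (-3.32). The phosphatase genes Dusp22 (1.88), Dusp7 (1.08) and Dusp3 (0.82) were higher, and Dusp6 passed with a log2 fold change of 0.25 but not without Protocol 3 replicate 1 (0.16).

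Interferon-stimulated genes depended on the culture. For Protocol 1 as a whole 17 of 40 were lower and 5 higher (median -0.45), and 39 of 40 differed among 1A, 1B and 1C. With no filter on low counts 15 were higher. Protocol 1A had 10 genes higher than Protocol 3 and 9 lower, 1C 11 higher and 7 lower, and 1B, without GM-CSF, 2 higher and 32 lower. Irf7, the factor that amplifies type I interferon, had 253 ± 189 CPM in 1A, 22.02 ± 8.55 in 1B and 187 ± 117 in 1C, against 84.9 ± 15.5 CPM in Protocol 3. It was higher than Protocol 3 in 1A (1.58 ± 0.59, adjusted p = 0.0318) and lower in 1B (-1.94 ± 0.62, adjusted p = 0.0151), and did not pass in 1C (1.14 ± 0.59, adjusted p = 0.102). The 3 libraries of 1A were far apart, at 95.03, 202 and 463 CPM. Ifitm3, an antiviral membrane protein, rose by 1.98 ± 0.28, adjusted p = 4.48e-05, and Bst2, the virus tether tetherin, by 2.26 ± 0.27, adjusted p = 9.08e-06. Oasl1 fell by 6.08 and Irf1 by 2.58.

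Antigen presentation divided by class. Class II genes were lower in 12 of 13 cases (median -4.47, range -7.60 (H2-Eb1) to 1.91 (Ifi30)). Cd74, the invariant chain, had 3.42, 47.6 and 80.8 CPM in Protocol 1, against 1592, 1576 and 1717 CPM in Protocol 3 (-6.01 ± 0.25, adjusted p = 7.79e-10), and the peptide-binding chain H2-Ab1 had 1.10, 5.92 and 10.7 CPM in Protocol 1, against 253, 261 and 222 CPM in Protocol 3 (-5.97 ± 0.23, adjusted p = 1.90e-10). H2-Aa and H2-Eb1 fell by 6.84 and 7.60, and Ciita, the class II transactivator, by 4.47. Protocol 1B was lowest for Cd74, at 4.79 ± 1.19 CPM, beside 51.6 ± 27.1 in 1A and 65.3 ± 13.9 in 1C. The costimulatory genes Cd86 and Cd80 fell by 3.48 and 1.17, and Ifi30, a thiol reductase of antigen processing, rose by 1.91. Class I genes were higher in 10 of 15 and lower in 3, but in 1 without Protocol 3 replicate 1 or 2 or Protocol 1C replicate 1. B2m, the light chain, rose by 0.58 ± 0.12, adjusted p = 1.90e-04, the immunoproteasome subunit Psmb10 by 1.76 ± 0.19, adjusted p = 1.96e-06 and Tapbp, which loads peptides, by 1.12 ± 0.20, adjusted p = 2.77e-04. In Protocol 1B 3 class I genes were higher and 5 lower, against 10 and 1 in 1A and 10 and 1 in 1C.

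Genes of phagocytic and disease-associated microglia were mostly higher in Protocol 1, 22 of 33, with 8 lower (median 1.36, range -6.12 (Csf1) to 9.58 (Atp6v0d2)). Spp1, the secreted phosphoprotein osteopontin, had 7974, 9056 and 13096 CPM in Protocol 1, against 155, 167 and 212 CPM in Protocol 3 (5.79 ± 0.12, adjusted p = 1.62e-19), and Igf1, a growth factor of developmental microglia, had 706, 792 and 1514 CPM in Protocol 1, against 10.9, 14.6 and 13.9 CPM in Protocol 3 (6.14 ± 0.11, adjusted p = 2.13e-20). Every Protocol 1 library was above every Protocol 3 library for both genes. Apoe, the lipid carrier, had 5837, 9994 and 25603 CPM in Protocol 1, against 1044, 1018 and 982 CPM in Protocol 3 (3.46 ± 0.13, adjusted p = 2.02e-15), with 20734 ± 4225 CPM in 1C beside 6338 ± 442 in 1A and 10527 ± 1686 in 1B. Lpl, which releases fatty acids from lipoproteins, rose by 1.93 ± 0.083, adjusted p = 1.77e-14, Cst7, a cathepsin inhibitor, by 2.25 ± 0.35, adjusted p = 1.08e-04 and Mmp12, macrophage elastase, by 3.75 ± 0.19, adjusted p = 1.99e-10. Members that fell were Csf1 (given above), Cd9 (-1.46 ± 0.082, adjusted p = 1.34e-12), Ank (-1.44 ± 0.052, adjusted p = 8.61e-16) and Cadm1 (-1.26 ± 0.11, adjusted p = 1.58e-08). Itgax and Ctsz did not pass.

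Lysosomal genes were higher in 25 of 34 and lower in 8 (median 0.76, range -1.69 (Cd164) to 4.12 (Sgsh)). The sulfatase Sgsh rose by 4.12 ± 0.10, adjusted p = 3.89e-18, the beta-galactosidase Glb1 by 3.11 ± 0.10, adjusted p = 7.65e-17, Naglu by 3.01 ± 0.083, adjusted p = 1.21e-17 and Gusb by 2.54 ± 0.081, adjusted p = 1.25e-16. All are enzymes that take sugar chains apart. Lamp1, the main protein of the lysosomal membrane, had 2039, 2585 and 3134 CPM in Protocol 1, against 982, 902 and 801 CPM in Protocol 3 (1.49 ± 0.089, adjusted p = 3.44e-12). Tfeb and Tfe3, the factors that switch on lysosomal genes, fell by 1.24 and 1.003, and Cd164 and Gla fell by 1.69 and 1.24. Subunits of the vacuolar proton pump were split, 5 of 15 higher and 9 lower, and with library totals 8 were higher and 5 lower. Atp6v0a1 rose by 2.05 ± 0.10, adjusted p = 1.01e-13, while Atp6v1h and Atp6ap2 fell by 1.70 and 1.65.

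Receptors for antibody and dying cells were higher in 8 of 14 and lower in 3. Fcgr4 had 36.4, 72.3 and 140.4 CPM in Protocol 1, against 4.08, 5.44 and 5.55 CPM in Protocol 3 (3.78 ± 0.27, adjusted p = 5.54e-08), and Fcgr1, Fcgr2b, Fcgr3 and the signalling chain Fcer1g rose by 1.72, 1.92, 1.59 and 1.45. Gas6, a bridging ligand for dying cells, rose by 2.71 ± 0.12, adjusted p = 1.89e-13. Its receptor Axl differed by culture, higher than Protocol 3 in 1A (1.38 ± 0.14, adjusted p = 7.33e-08) and 1C (1.60 ± 0.14, adjusted p = 1.15e-08) and lower in 1B (-1.67 ± 0.14, adjusted p = 7.04e-09). Mertk, the related receptor, did not pass (0.011 ± 0.12, adjusted p = 0.935), and Tyro3 fell by 1.59.

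Complement genes were split, 10 higher and 9 lower of 20, beside 37.3% and 42.9% of all genes tested. Cfp, properdin, had 133, 176 and 351 CPM in Protocol 1, against 5.32, 7.61 and 7.51 CPM in Protocol 3 (4.83 ± 0.16, adjusted p = 3.73e-14), and C2 and C1ra rose by 2.91 and 3.13. Cd55, the decay accelerating factor that protects cells from complement, had 0, 0.0526 and 0.272 CPM in Protocol 1, against 2.66, 1.44 and 1.47 CPM in Protocol 3 (-5.50 ± 0.46, adjusted p = 2.68e-09). C3, the central component, was higher than Protocol 3 in 1A (2.70 ± 0.39, adjusted p = 6.69e-05) and 1C (2.74 ± 0.39, adjusted p = 6.27e-05) and lower in 1B (-1.92 ± 0.40, adjusted p = 0.00105). The C1q genes varied with the culture. C1qa had -0.49 ± 0.11, adjusted p = 5.94e-04, which did not pass with library totals (-0.042), C1qc had 0.35 ± 0.10, adjusted p = 0.00489 and C1qb did not pass (-0.18 ± 0.082, adjusted p = 0.0534). Against these, C1qa and C1qb had positive values in 1C (0.46 ± 0.14, adjusted p = 0.00623 and 0.62 ± 0.10, adjusted p = 1.56e-05) and C1qc a negative one in 1A (-0.68 ± 0.13, adjusted p = 9.05e-05).

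Pattern receptors were also split, 10 higher and 7 lower of 21, beside 37.3% and 42.9% of all genes tested. Tlr8, a sensor of RNA in endosomes, had 66.2, 128 and 167 CPM in Protocol 1, against 3.90, 1.72 and 1.67 CPM in Protocol 3 (5.52 ± 0.23, adjusted p = 3.99e-11). Tlr3, Tlr4 and Tlr6 rose by 1.38, 0.83 and 0.93, and Irak4, a kinase of the pathway, by 1.64. Tlr2 fell by 1.95 ± 0.074 on the log2 scale, adjusted p = 2.05e-15 and Cd14, the co-receptor for lipopolysaccharide, by 3.20 ± 0.10 on the log2 scale, adjusted p = 1.22e-15, as did the adaptor Ticam1 (-2.30) and the inducible kinase Irak2 (-2.92). Tlr1 and Tirap did not pass.

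Of 22 integrins, matrix proteases and their inhibitors 11 were higher and 7 lower, beside 37.3% and 42.9% of all genes tested. Itga5, the fibronectin receptor chain, had 131, 141 and 156 CPM in Protocol 1, against 3237, 3487 and 2746 CPM in Protocol 3 (-4.48 ± 0.069, adjusted p = 3.33e-21), and Itga4, Itga6 and Itgb1 rose by 1.504, 1.38 and 0.99.

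Cell cycle genes were higher in Protocol 1. Of 48 mitosis genes 46 were higher and 0 lower (median 3.15, range 0.085 (Pttg1) to 4.83 (Ccnb1)), and of 45 DNA replication genes 40 were higher and 3 lower (median 2.13, range -1.12 (Cdt1) to 4.81 (Gins2)). Cdk1, the kinase that starts mitosis, had 22.1, 27.04 and 39.3 CPM in Protocol 1, against 1.48, 1.05 and 1.08 CPM in Protocol 3 (4.58 ± 0.12, adjusted p = 1.05e-17), and its partner Ccnb1, cyclin B1, had 6.86, 20.8 and 28.3 CPM in Protocol 1, against 0.532, 0.833 and 0.295 CPM in Protocol 3 (4.83 ± 0.21, adjusted p = 2.13e-14). All 9 Protocol 1 libraries were above all 3 Protocol 3 libraries for both. Mki67, the Ki-67 antigen, had 51.5, 108 and 142 CPM in Protocol 1, against 12.5, 17.99 and 9.58 CPM in Protocol 3 (2.77 ± 0.18, adjusted p = 2.94e-09) and Top2a, the topoisomerase of chromosome separation, had 39.4, 76.9 and 104 CPM in Protocol 1, against 5.73, 9.16 and 3.98 CPM in Protocol 3 (3.43 ± 0.18, adjusted p = 6.69e-11). Bub1, a checkpoint kinase, and Smc2, a condensin subunit, rose by 4.26 and 3.66. The replicative helicase genes Mcm2, Mcm3, Mcm4, Mcm5, Mcm6 and Mcm7 rose by 1.83, 2.08, 3.33, 3.86, 3.31 and 1.98, and Rrm1, a subunit of the enzyme that makes deoxynucleotides, by 3.45. Cdt1, a licensing factor, and Slbp, the histone mRNA binding protein, fell by 1.12 and 0.88. The mitosis genes Kif22 and Pttg1 did not pass.

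Dividing-cell transcripts also differed between the cultures. Cdk1 averaged 26.5 ± 1.75 CPM in 1A, 37.95 ± 1.15 in 1B and 23.6 ± 1.39 in 1C, against 1.20 ± 0.237 CPM in Protocol 3. Mki67 averaged 108 ± 16.5, 124 ± 16.8 and 56.2 ± 6.23 CPM in 1A, 1B and 1C, against 13.4 ± 4.27 CPM in Protocol 3. For both genes 1C had the lowest mean of the cultures and 1B the highest. Among 1A, 1B and 1C 46 of 48 mitosis genes differed, 31 of 45 replication genes and 38.6% of all genes.

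Of 24 genes that govern entry into the cycle 18 were higher and 6 lower. E2f1, the factor that switches on replication genes, had 39.97, 45.9 and 58.2 CPM in Protocol 1, against 2.54, 3.44 and 2.65 CPM in Protocol 3 (4.04 ± 0.12, adjusted p = 2.68e-17), and Ccne1, cyclin E1, rose by 3.22 ± 0.18, adjusted p = 1.76e-12. The genes that fell include both brakes and drivers. Cdkn1a, the inhibitor p21, had 108, 144 and 213 CPM in Protocol 1, against 998, 1018 and 956 CPM in Protocol 3 (-2.75 ± 0.090, adjusted p = 2.38e-15), Ccnd2, cyclin D2, fell by 2.98 and Cdk6, its kinase, by 3.18. Ccnd1 and Ccnd3, the other D cyclins, rose by 0.61 and 0.73.

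The stretches before the starts of Cdk1 and Mcm6 are given because mitosis and replication genes carry known elements there. The capitals mark E2F sites (TTTCGCGC or TTTGGCGC) in both, and in Cdk1 also CCAAT boxes and the cell cycle homology region (CHR, TTTGAA or TTCGAA), each on either strand. The Cdk1 stretch ends 26 bases before its RefSeq start, where the deposited gene model begins. It holds an E2F site at -131, CCAAT boxes at -80 and -48 and a CHR at -71. Mcm6 holds E2F sites at -110, -106 and -47, and the first pair overlap on opposite strands.
Cdk1 (chr10:69352939-69353072, minus strand, GRCm38.p6): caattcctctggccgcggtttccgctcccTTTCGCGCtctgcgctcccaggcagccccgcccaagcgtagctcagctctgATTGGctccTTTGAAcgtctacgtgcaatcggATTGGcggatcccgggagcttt
Mcm6 (chr1:128359706-128359865, minus strand, GRCm38.p6): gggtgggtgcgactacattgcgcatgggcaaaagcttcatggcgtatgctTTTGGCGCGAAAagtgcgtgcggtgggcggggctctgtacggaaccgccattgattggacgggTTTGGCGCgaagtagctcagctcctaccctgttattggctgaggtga

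Over the 250 bases before the start, 17 of 40 mitosis genes with a RefSeq promoter held a CHR (42.5%), against 19.6% of all promoters, and 30 of the same 40 held a CCAAT box, against 37.5%. An E2F site was in 7 of 36 replication genes (19.4%), against 0.759% of all promoters.

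**Figure D4:**
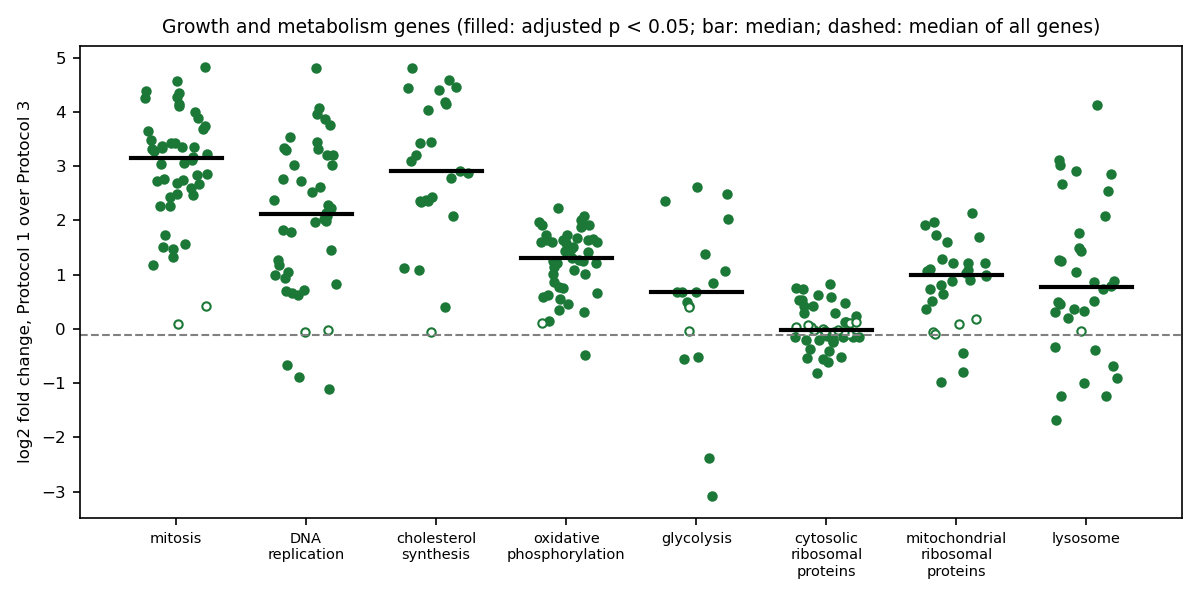
Log2 fold changes of Protocol 1 against Protocol 3 for every tested member of 8 lists, with 1 point per gene, filled where the gene passed, and a bar at the median of each list. The dashed line is the median of all genes tested (-0.12). Medians were 3.15 for mitosis, 2.91 for cholesterol synthesis and -0.021 for cytosolic ribosomal proteins.

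Cholesterol synthesis was higher at nearly every step in Protocol 1, in 24 of 25 genes, with 0 lower (median 2.91). Hmgcs1, an early enzyme of the pathway, had 125, 221 and 288 CPM in Protocol 1, against 44.6, 44.5 and 36.7 CPM in Protocol 3 (2.34 ± 0.14, adjusted p = 6.65e-10), and Sqle, which makes squalene epoxide, had 97.5, 147 and 218 CPM in Protocol 1, against 13.95, 14.5 and 14.3 CPM in Protocol 3 (3.44 ± 0.26, adjusted p = 1.33e-07). Neither gene overlapped between the groups. The final-step reductase gene Dhcr7 rose by 4.59 ± 0.14, adjusted p = 2.50e-16 and Mvk, which encodes mevalonate kinase, by 4.16 ± 0.12, adjusted p = 2.20e-17. Insig1 and Srebf2, which regulate the pathway, rose by 2.35 and 0.41, and Scap, which escorts the SREBP factors, did not pass. Hmgcs1 averaged 277 ± 12.7 CPM in 1A, 222 ± 8.43 in 1B and 156 ± 33.1 in 1C, against 41.9 ± 4.55 CPM in Protocol 3.

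The bases before Hmgcs1 are printed for the CCAAT box, which lies beside sterol response elements in many promoters of this pathway. The capitals mark it, at -45 on the reverse strand. A CCAAT box was in 16 of 18 listed genes with a RefSeq promoter (88.9%), against 37.5% of all promoters.
Hmgcs1 (chr13:119690191-119690350, plus strand, GRCm38.p6): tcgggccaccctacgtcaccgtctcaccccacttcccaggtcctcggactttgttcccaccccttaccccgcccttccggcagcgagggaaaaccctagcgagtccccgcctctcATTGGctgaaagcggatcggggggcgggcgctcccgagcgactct

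Fatty acid synthesis and LXR targets were higher in 11 of 17 and lower in 2. Nr1h3, which encodes LXRα, rose by 1.88 ± 0.16, adjusted p = 6.34e-10, Acaca, the first enzyme of fatty acid synthesis, by 1.96 ± 0.10, adjusted p = 1.65e-13 and the desaturases Fads1 and Fads2 by 2.23 and 2.94. Mylip, a ubiquitin ligase that LXR induces, had 20.1, 38.5 and 59.8 CPM in Protocol 1, against 533, 590.2 and 552 CPM in Protocol 3 (-3.99 ± 0.094, adjusted p = 1.06e-16), and Me1 fell by 1.57. Abca1 and Abcg1, the cholesterol exporters that LXR induces, did not pass for Protocol 1 as a whole. Abca1 had 32.3 ± 0.243 CPM in 1A, 141 ± 10.5 in 1B and 219 ± 31.8 in 1C, against 92.2 ± 11.97 CPM in Protocol 3.

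Genes of energy metabolism were mostly higher in Protocol 1. Of 45 nuclear genes of oxidative phosphorylation 43 were higher and 1 was lower (median 1.31, range -0.48 (Ndufs8) to 2.24 (Ndufb3)). Ndufa1 had 10.9, 23.04 and 33.3 CPM in Protocol 1, against 7.33, 6.11 and 7.76 CPM in Protocol 3 (1.67 ± 0.17, adjusted p = 1.02e-07), Ndufs7 rose by 2.08 ± 0.080, adjusted p = 2.56e-15 and Sdhc by 1.98 ± 0.063, adjusted p = 1.25e-16. Ndufs8 had -0.48 ± 0.083, adjusted p = 2.39e-05, which did not pass with library totals (-0.023), and Uqcrc2 did not pass. Transcripts of the mitochondrial genome were higher in 10 of 12, led by mt-Co1 (1.78 ± 0.10, adjusted p = 6.83e-13), beside the higher mitochondrial share of counts given above. Of 13 genes of the citric acid cycle and itaconate 11 were higher, with Suclg1 at 2.46, Idh2 at 2.38 and Fh1 at 2.07. Acod1, which makes the inflammatory metabolite itaconate, had 3.74, 22.5 and 79.5 CPM in Protocol 1, against 293, 352 and 283 CPM in Protocol 3 (-3.69 ± 0.35, adjusted p = 1.71e-06), and Dlst fell by 0.62.

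Glycolysis was higher in 12 of 18 genes and lower in 4. Ldha, lactate dehydrogenase, had 585, 722 and 818 CPM in Protocol 1, against 129, 129.8 and 117 CPM in Protocol 3 (2.49 ± 0.071, adjusted p = 2.10e-17), and Pgam1 and Eno1 rose by 2.61 and 2.35. The glucose transporter Slc2a1 had 56.5, 85.2 and 124 CPM in Protocol 1, against 455, 423 and 438 CPM in Protocol 3 (-2.38 ± 0.062, adjusted p = 5.65e-18), and Pfkfb3, which drives the rate-limiting step, fell by 3.09 ± 0.054 on the log2 scale, adjusted p = 1.34e-20. Hk1 and Hk2, the hexokinases that feed the pathway, had log2 fold changes of -0.52 and -0.56, which did not pass with library totals (-0.068 and -0.11).

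Mitochondrial ribosomal proteins were higher in 23 of 30 genes (median 0.99). Cytosolic ribosomal proteins stayed near the median of all genes, with 15 of 44 higher, 17 lower and a median of -0.021. With library totals 36 of them were higher and 2 lower, so no direction is given for this family.

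Stress defence genes were lower with the immediate early genes. Of 16 antioxidant genes 11 were lower and 5 higher. Gclc, which makes the precursor of glutathione, had 32.7, 53.1 and 75.3 CPM in Protocol 1, against 878, 873 and 1025 CPM in Protocol 3 (-4.14 ± 0.12, adjusted p = 1.94e-13), and Txnrd1, thioredoxin reductase, had 209.6, 264 and 393 CPM in Protocol 1, against 4282, 4135 and 3791 CPM in Protocol 3 (-3.86 ± 0.086, adjusted p = 1.68e-18). Srxn1, Gclm and Hmox1, haem oxygenase, fell by 3.56, 3.38 and 1.89, while Gpx1 and Cat, which remove peroxides, rose by 2.29 and 1.61. Of 17 genes of the unfolded protein and integrated stress responses 13 were lower and 4 higher. Ppp1r15a, which restarts translation after stress, had 12.7, 15.7 and 24.1 CPM in Protocol 1, against 1044, 1046 and 932 CPM in Protocol 3 (-5.86 ± 0.073, adjusted p = 1.66e-22), and Atf4, the main factor of the response, had 108, 158 and 241 CPM in Protocol 1, against 954, 989.7 and 958 CPM in Protocol 3 (-2.55 ± 0.091, adjusted p = 1.22e-14). Chaperones of secretion went the other way, with Sdf2l1 at 2.54 and Pdia4 at 1.79.

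Of 12 genes of iron handling 4 were higher and 5 lower, and with library totals 7 and 3. Slc40a1, the iron exporter ferroportin, had 101, 144 and 334 CPM in Protocol 1, against 1984, 1848 and 1828 CPM in Protocol 3 (-3.48 ± 0.071, adjusted p = 1.37e-19), and Steap3, which reduces iron in endosomes, had 51.3, 65.96 and 74.4 CPM in Protocol 1, against 1.48, 0.722 and 1.18 CPM in Protocol 3 (5.79 ± 0.16, adjusted p = 1.02e-17). Fth1, the ferritin heavy chain, rose by 0.72 ± 0.074, adjusted p = 1.90e-08, and Tfrc, the transferrin receptor, did not pass.

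A small number of genes moved in opposite directions against Protocol 3 in different cultures. Of the genes that passed in both 1A and 1B, 253 had opposite signs, 120 for 1A and 1C and 154 for 1B and 1C. The clearest 5 by the weaker adjusted p were Sema4a, Vegfa, Napsa, Abca1 and Clstn1. Sema4a, a semaphorin, had 89.2 ± 7.25 CPM in 1A, 1.84 ± 0.349 in 1B and 33.2 ± 6.48 in 1C, against 22.2 ± 3.42 CPM in Protocol 3. Napsa, the aspartic protease napsin A, had 37.97 ± 0.479, 0.193 ± 0.177 and 12.5 ± 3.42 CPM in 1A, 1B and 1C, against 4.78 ± 1.06 in Protocol 3. For Sema4a and Napsa, 1A and 1C were above Protocol 3 and 1B below it. Vegfa, the vascular growth factor, had 6.89 ± 1.52, 10.8 ± 1.27 and 71.8 ± 8.67 CPM in the same order, against 25.2 ± 1.10 in Protocol 3, so that 1C alone was above it. Clstn1, a cadherin-like protein, had 22.3 ± 1.68, 62.6 ± 2.02 and 84.1 ± 8.29 CPM, against 44.95 ± 4.50 in Protocol 3. Like Abca1, it was below Protocol 3 in 1A and above it in 1B and 1C. The adjusted p of the difference among 1A, 1B and 1C was 1.88e-13 for Sema4a, 9.90e-13 for Vegfa, 4.21e-11 for Napsa, 2.35e-11 for Abca1 and 2.35e-11 for Clstn1.

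**Figure D5:**
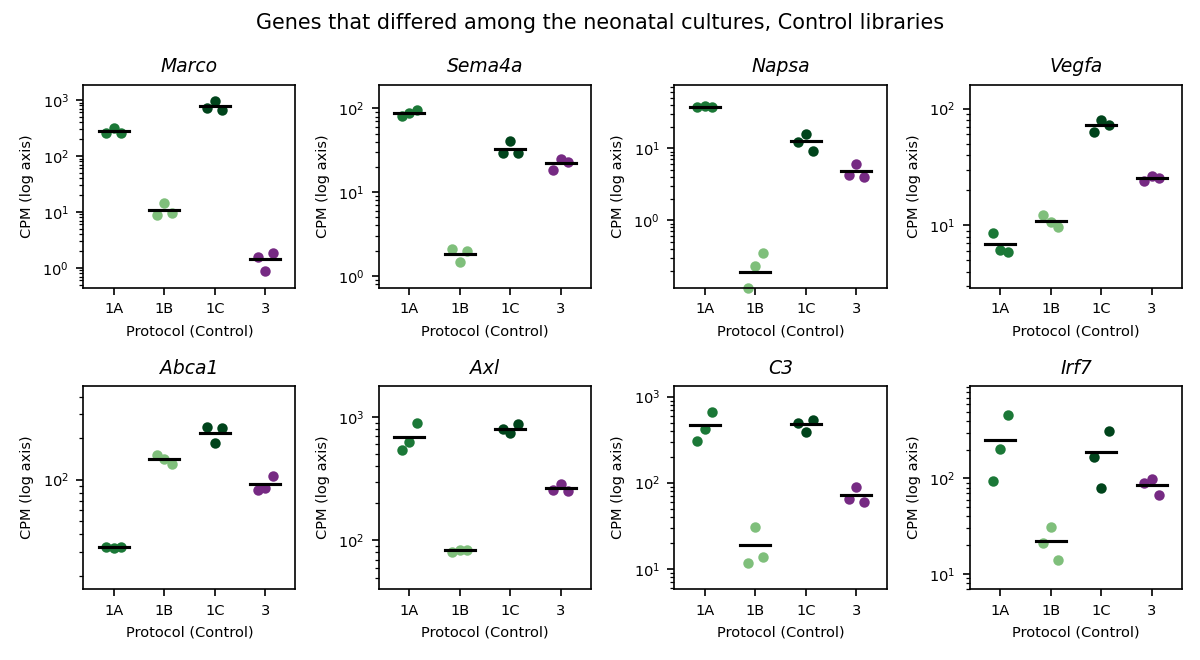
Levels of 8 genes that differed among the neonatal cultures, in each Control library of Protocols 1A, 1B, 1C and 3, in CPM on a log axis, with points for libraries and bars for means of 3. Protocol 1B stands apart in most panels, as for Marco with 10.97 ± 2.97 CPM (mean ± SD) beside 275 ± 30.7 in 1A and 778 ± 153 in 1C.

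Transcripts of other cells were more plentiful in Protocol 3 for most lists. Their part in the differences above was not tested. In bulk RNA, fewer cells of a type and less RNA per cell cannot be told apart. Neutrophil genes were lower in Protocol 1 in 11 of 12, and the level summed over the list was 2.70 to 67.2 CPM in Protocol 1, against 481 to 992 CPM in Protocol 3. S100a8 and S100a9 encode the calprotectin subunits. S100a8 had 0.0465, 2.70 and 5.56 CPM in Protocol 1, against 80.8, 172 and 82.6 CPM in Protocol 3 (-6.42 ± 0.27, adjusted p = 1.76e-10), and S100a9 had 6 counts over the 9 Protocol 1 libraries, against 145, 277 and 142 CPM in Protocol 3. Protocol 3 replicate 2 was highest for both. The neutrophil granule genes Ltf, lactoferrin, and Ngp had 6 and 2 counts in Protocol 1, against 2142 and 9167 counts in Protocol 3. Haemoglobin genes had 0 to 0.597 CPM together in Protocol 1, against 405 to 765 CPM in Protocol 3, and Hbb-bs was 28050.0-fold (95% interval 7764 to 231637) higher in Protocol 3. Hba-a1, an alpha globin gene, had 7 counts in Protocol 1, against 14187 counts in Protocol 3. Of 14 endothelial genes 13 were lower and 1, Vwf, was higher. The level summed over the list differed less than the genes named next, at 104 to 197 CPM in Protocol 1, against 219 to 260 CPM in Protocol 3. Cldn5, the tight junction protein of brain vessels, had 0 counts in all Protocol 1 libraries and 16.97, 15.7 and 18.1 CPM in Protocol 3, at least 1042-fold higher in Protocol 3. Pecam1, also made by myeloid cells, had 0.154, 0.383 and 0.859 CPM in Protocol 1, against 33.6, 30.7 and 35.1 CPM in Protocol 3. Rgs5, a pericyte gene, had 0 counts in Protocol 1 and 23.9, 16.7 and 20.3 CPM in Protocol 3 (at least 1245-fold).

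The choroid plexus gene Ttr, which encodes transthyretin, had 0.0409, 4.89 and 34.3 CPM in Protocol 1, against 1057, 587 and 679 CPM in Protocol 3 (-8.004 ± 0.54, adjusted p = 7.25e-08), and all 6 tested genes of ependyma and choroid plexus were lower in Protocol 1. Natural killer cell genes Gzma, Ncr1 and Nkg7 had 0 counts in Protocol 1. Gzma, granzyme A, had 6.68, 7.27 and 5.99 CPM in Protocol 3, and the others at least 2.36 CPM (Ncr1) and 1.72 CPM (Nkg7) in each library. Cd3e, a T cell gene, had 0 counts in Protocol 1 and was too low to be tested. Pituitary hormone genes Gh and Prl had 0 counts in Protocol 1. Protocol 3 had 27.02, 1.39 and 3.44 CPM of Gh, and replicate 1 was highest for Prl too. Prl did not pass. Monocyte genes were mixed, with 2 of 10 higher and 5 lower. Ly6c2 had 40.2 ± 21.3 CPM in 1A, 0 in all 3 libraries of 1B and 18.7 ± 6.05 in 1C, against 12.5 ± 3.92 CPM in Protocol 3. Ccr2 had 36.2 ± 8.65, 0.493 ± 0.133 and 3.996 ± 0.529 CPM in the cultures, against 3.46 ± 0.498 in Protocol 3. Both genes mark monocytes that enter tissue.

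Glial and stromal transcripts were present as well. Of 12 oligodendrocyte lineage genes 6 were higher and 3 lower, and the summed level was 152 to 291 CPM in Protocol 1, against 91.4 to 103 CPM in Protocol 3. Of 12 astrocyte genes tested 3 were higher and 6 lower (median -0.88), with Slc1a3, Fgfr3, Clu and Sox9 among the falls. Those that rose were Aldh1l1, Aldoc and S100b. The split varied with the culture, with 2 higher and 8 lower in 1A, 5 and 3 in 1B, and 6 and 5 in 1C. Gfap, the filament of astrocytes, did not pass for Protocol 1 as a whole. It had 0 CPM in all 3 libraries of 1A, 7.66 ± 5.72 in 1B and 4.37 ± 3.87 in 1C, against 0.168 ± 0.110 CPM in Protocol 3. Col3a1, a fibroblast collagen, had 0.420 ± 0.305, 12.8 ± 7.35 and 15.1 ± 8.62 CPM, against 0.0885 ± 0.0780 in Protocol 3. Summed astrocyte genes overlapped between the groups, at 37.97 to 99.03 CPM in Protocol 1, against 54.3 to 81.2 CPM in Protocol 3. The Y-linked genes Ddx3y, Eif2s3y, Kdm5d and Uty had 0 counts in all 3 Protocol 3 libraries. Ddx3y had 15.02 to 46.7 CPM in Protocol 1, at least 545-fold higher than in Protocol 3, and Xist, the X-inactivation RNA, had 229.9, 397 and 499 CPM in Protocol 1, against 1221, 1191 and 1025 CPM in Protocol 3. Every Protocol 1 library thus held both Ddx3y and Xist, and the Protocol 3 libraries held Xist without these Y-linked genes. The sex of the mice is not given in the sources used here, and its part in the differences cannot be told apart from that of the protocol.

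Protocol 2, cells of mice aged 6 to 8 weeks kept in culture for 7 days, with 100 ng/ml of GM-CSF and the same dose of the macrophage growth factor M-CSF, gave a further comparison for the neonatal cultures. It uses the 3 Control libraries of Protocol 2, and differs from the one above in its reference alone. Over all genes 24.6% were higher in Protocol 1 than in Protocol 2 and 30.7% lower. Of 5 sex-linked genes tested 4 were higher and 1 lower, so the part of sex cannot be told apart here either. Of the immediate early genes 6 were higher in Protocol 1 than in Protocol 2 and 16 lower, and of the heat shock genes 1 and 4. Mitosis genes were higher than in Protocol 2 in 46 of 48 and cholesterol synthesis genes in 24 of 25. Cdk1 averaged 29.4 ± 6.68 CPM in Protocol 1, against 9.87 ± 0.0828 CPM in Protocol 2, a log2 fold change of 1.54 ± 0.088, adjusted p = 2.33e-11. For P2ry12 the means were 11.3 ± 2.53 CPM in Protocol 1 and 38.9 ± 9.34 CPM in Protocol 2 (-1.80 ± 0.16, adjusted p = 6.95e-07), and for oxidative phosphorylation 6 of 45 genes were higher and 12 lower. Interferon genes were lower than in Protocol 2 in 38 of 40 cases. Some lists that were mostly higher than in Protocol 3 were mostly lower than in Protocol 2. Of 33 phagocytic and disease-associated genes 8 were higher than in Protocol 2 and 20 lower. For lysosomal genes it was 4 and 25 of 34, and for receptors for antibody and dying cells 3 and 9 of 14.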

How the data were processed

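RNA of 12 Control libraries was compared, 3 each of Protocols 1A, 1B, 1C and 3. The authors aligned reads with HISAT2 2.0.5 and deposited raw counts per gene made with featureCounts 1.5.0-p3. The genome build and the strand setting are not given in the sources used here. Gene positions matched GENCODE M21 (GRCm38) for 98.3% of 54409 shared genes. Total counts were 15824000 to 24892200 per library.

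Counts were fitted with edgeR 4.0.16 in R 4.3.3 (TMM, filterByExpr, robust quasi-likelihood F test) over the 15 Control libraries, those of Protocol 2 included, to share 1 estimate of the spread. This left 17033 of 54532 genes. The contrast was the mean of 1A, 1B and 1C minus Protocol 3, with Benjamini-Hochberg adjustment over all genes tested. Standard errors are the absolute log2 fold change over the square root of F. The same design was also run on simulated data of 16301 genes. Of these only 64, 65 and 64 tested genes were changed, by 1.5-fold, 2-fold and 4-fold. The test called 57.8%, 76.9% and 90.6% of them in the same order, with 12 false calls. In the real data most genes differed, so these rates cannot be carried over to the comparison here. Where a group had 0 counts, folds are bounds against 3 counts over the group. With 1 to 3 counts the ratio is given with an exact 95% interval. Both cover counting error only.

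The comparison and its 49 gene lists (967 symbols, 938 tested) were chosen with earlier results of these data known. Genes named were the 15 largest rises and falls that passed (coding genes only, averaging 10 CPM or more in whichever group was higher, with counts in both groups and no overlap), and, for each list, its first 6 members, up to 4 passing members per direction and 2 not passing. Lists of up to 15 genes could be named in full, and 5 genes were taken for opposite directions among 1A, 1B and 1C. Values are printed for a part of these genes, and some are not reported here. Upk1b, Lyz1 and the ends of the list ranges Chordc1, Gins2, Jund, Ndufb3, Sall3, Smad7 and Traf1 were chosen after their values were seen. Near-identical copies (Hspa1a and Hspa1b, Lyz1 and Lyz2, the globins, Ifi202b, Csf2rb and Csf2rb2) are uncertain, as are overlapping and antisense genes. Promoters are RefSeq sequences of GRCm38.p6. Alternatives were other scalings, DESeq2 1.42.0, no filter on low counts, a log2 fold change of at least 1, a replicate block, fewer or pooled libraries, leaving out mitochondrial and rRNA-type genes, and leaving out each library.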

Additional observations from a re-analysis of the deposited data

Results flagged for a closer look

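For 5 genes the difference from Protocol 3 itself differed between the neonatal cultures, with both signs past the threshold. The gap between the highest and the lowest log2 fold change against Protocol 3 was 5.61 for Sema4a (adjusted p among 1A, 1B and 1C 1.88e-13, edgeR quasi-likelihood F test), 3.37 for Vegfa (9.90e-13), 7.60 for Napsa (4.21e-11), 2.76 for Abca1 (2.35e-11) and 1.91 for Clstn1 (2.35e-11). Sema4a was at 2.001 (1A), -3.61 (1B) and 0.58 (1C). Napsa followed the same order, at 2.99 (1A), -4.60 (1B) and 1.39 (1C). Vegfa was at -1.86 (1A), -1.22 (1B) and 1.51 (1C), Abca1 at -1.51 (1A), 0.61 (1B) and 1.25 (1C) and Clstn1 at -1.01 (1A), 0.48 (1B) and 0.90 (1C). These 5 were taken as the clearest of the genes with opposite signs, so their sizes are not typical of the others. Days in culture and GM-CSF differ between the cultures, and their parts were not tested.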

How the results depend on the processing

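The counts of genes higher and lower in Protocol 1 as a whole, and those in 1A, 1B and 1C, stayed within 1.5 times under each alternative run. They lay between 4296 (log2 fold change of at least 1) and 7925 (library totals) for genes higher, and between 5344 (log2 fold change of at least 1) and 9467 (no filter, 30698 genes tested) for genes lower. The 12 libraries alone gave 6712 higher and 6554 lower, or 50.6% higher among the genes called, and DESeq2's Wald test 6135 and 7557. Leaving out 1 library gave 6133 to 6473 higher and 7098 to 7672 lower. The replicate block gave 6308 higher and 7273 lower. Samples of the same number showed only weak joint deviations (correlations of -0.077 to 0.130 over the same-number pairs). With 3 libraries per group these values cannot exclude that samples of the same number shared a batch. Of 98 counts of list members, 21 moved by over 1.5 times with library totals, 11 with the 9 neonatal libraries as one group, 3 with DESeq2 size factors and 6 when any 1 library was left out. With the 9 libraries as one group 9 interferon genes were lower, against 17. Of 330 named genes tested, 263 kept call and direction under each alternative.

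For some genes the sign of the log2 fold change, or the sign and the call, turned, and the cause was not tested. With Protocol 1A alone it was -1.51 for Abca1, -0.68 for C1qc, -1.01 for Clstn1, -0.14 for Dusp6, -0.78 for Folr2, 0.039 for Hk1, 1.68 for Ly6c2, 2.99 for Napsa, 0.42 for Ptprc, 2.001 for Sema4a, 0.27 for Sod2 and -0.31 for Tgfbr2. With Protocol 1B alone it was -1.67 for Axl, -1.92 for C3, -0.075 for Ccl9, -1.48 for Ccr1, -2.77 for Ccr2, -0.079 for Csf2ra, 0.38 for F13a1, -0.12 for Ikbke, -0.17 for Irak3, -1.94 for Irf7, -0.27 for Itgam, 0.55 for Lgmn, -0.89 for Nt5e, 0.57 for Tal1 and 0.40 for Tfrc. With Protocol 1C alone it was 0.46 for C1qa, 0.62 for C1qb, 0.21 for Ccl2, 2.23 for Ccl8, 0.10 for Csf2rb2, 4.82 for Cxcl13, 0.86 for Itgax, 0.57 for Ly6c2, 1.39 for Napsa, 0.58 for Sema4a, 0.99 for Tlr1 and 1.51 for Vegfa. With library totals alone it was 0.27 for C1qb, 0.22 for Chordc1, 0.25 for Csf2rb2, 0.28 for Itgax, 0.31 for Lgmn, 0.43 for Ptprc, 0.40 for Scap, 0.11 for Sema4a, 0.33 for Sod2, 0.38 for Tal1, 0.32 for Tfrc, 0.060 for Tgfb1, 0.35 for Tlr1 and 0.28 for Tnfaip2. With the 9 neonatal libraries as one group it was 0.65 for Ly6c2, 0.90 for Sema4a and 0.24 for Vegfa.

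Depth limits the lowest genes. Protocol 1 libraries were shallower than those of Protocol 3, and folds on few counts depend on the prior count. With 3 libraries in Protocol 3, 1 library can end a call near the threshold. The mitochondrial difference was 0.867 to 0.936 percentage points when 1 library was left out.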

Other observations

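Fibroblast and mural cell genes separated Protocol 1A from the other neonatal cultures. Of 11 tested, 0 were higher than in Protocol 3 and 5 lower in 1A, 5 higher and 4 lower in 1B, and 5 higher and 4 lower in 1C. Col1a1, a collagen of connective tissue, had 1.06 ± 0.531 CPM in 1A, 22.95 ± 12.3 in 1B and 28.5 ± 7.31 in 1C, against 0.815 ± 0.160 CPM in Protocol 3 (mean ± SD, n = 3 each). The summed level of the list was 3.79 to 114 CPM in Protocol 1, against 35.6 to 47.5 CPM in Protocol 3, and Rgs5, its pericyte marker, was at 0 in Protocol 1. Summed neuronal genes overlapped, at 1.25 to 17.96 CPM in Protocol 1, against 3.05 to 6.15 CPM in Protocol 3. Of 8 lymphocyte genes 7 were lower in Protocol 1 and 1 was higher, with a summed level of 4.24 to 59.98 CPM in Protocol 1, against 191 to 228 CPM in Protocol 3.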
